A study of Mus musculus with 35 samples.

Results

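The genes described here are 40 genes of supporting tissue, listed by symbol, which fall into 4 classes: matrix (collagens, basement membrane proteins, proteoglycans and secreted matrix proteins), fibroblast and mural, vessel, and follicular stroma. Of the 40, 39 had a probe set annotated to them, among 12393 genes measured: 22 matrix, 4 fibroblast and mural, 8 vessel and 5 follicular stroma genes. Each gene was read from the probe set with the highest mean over all 35 arrays. No probe set carried the name Fbn1, and it was not analysed here. No fold change or test entered the choice of probe set, but the list was drawn up with earlier results of these data known.

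The study profiled mouse B cells at 6 stages of differentiation and 3 kinds of lymphoid tumour on Affymetrix 430A2 arrays, to set malignant against normal B cells. The normal populations were wild-type and sorted by flow cytometry: pro-B cells (B220-positive, CD43-high, IgM-negative; 3 arrays, 2 from strain 129 and 1 from B6) and pre-B cells (B220-positive, CD43-low, IgM-negative; 3 arrays, 129) from bone marrow, transitional B cells (B220-positive, Cd93-positive; 4 arrays, 129), germinal centre (GC) B cells (B220-positive, PNA-high; 5 arrays, B6) and plasmablasts (B220-positive, Cd138-positive, Cd93-negative; 4 arrays, B6) from spleen, and plasma cells (low B220, positive for Cd138 and negative for Cd93; 3 arrays, B6) from bone marrow. The tumours came from Bcl6 knock-in mice (4 arrays), from Bcl6/Myc dual-transgenic mice (3 arrays, labelled Myc/Bcl6) and from Lig4/p53 double knock-out mice (6 arrays). The labels name no sort, organ or background strain for the tumours, no promoter for the transgenes and no ages, and do not say whether replicates came from separate mice, so p-values measure only the spread between these samples.

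Lymphoid organs are held together by stromal cells. Fibroblastic reticular cells lay down collagen fibres, endothelial cells and their mural cells form the vessels on a basement membrane of type IV collagen, laminin and nidogen, and follicular dendritic cells hold antigen in B-cell follicles and secrete Cxcl13, the chemokine that draws B cells there. In bulk RNA, fewer cells of a type and less RNA per cell cannot be told apart.

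All values are log2 intensities after RMA, the summary method for Affymetrix arrays. Over all arrays they ran from 1.71 to 14.29 with a median of 4.92, and no detection calls were used here, so a value near 3 is a dim probe set whose true level is not resolved. The spread within an array (interquartile range) was 3.25 to 4.23 on most arrays and narrower, 2.03 to 2.85, on pro-B replicate 1, pre-B replicate 2, Bcl6 tumour replicate 2 and the 3 Myc/Bcl6 arrays. The alternative without narrow arrays leaves out the first 3 of these, which had the narrowest ranges (2.03 to 2.15). The others are the whole Myc/Bcl6 group, and that group has no value without its narrow arrays. Single dim probe sets could read high on a narrow array: on pre-B replicate 2 Tagln stood at 6.65 and Fbln1 at 6.39, against 2.71 and 2.73, and 3.47 and 3.59, on the other pre-B arrays. RNA quality also moved with the tumours. The difference between 3′ and 5′ probe sets of Actb and Gapdh was 2.25 to 4.69 in tumours and 0.68 to 1.55 in GC cells, and 2 of 3 plasma cell arrays (4.59 and 4.46) lay with the tumours. The signal of the 18S ribosomal RNA probe sets was 4.14 to 6.15 in tumours. It was 10.04 to 11.13 in GC cells and 10.8 to 11.3 in pro-B cells. This gap cannot be told apart from the difference between the tumours and these stages. Myc stood at 4.93 to 5.41 on the arrays labelled Myc/Bcl6, below the 7.75 to 10.23 of GC cells. This goes against that label, so these are called the tumours labelled Myc/Bcl6 throughout. Bcl6 stood at 6.23 to 8.52 in the Bcl6 tumours and at 4.18 to 9.10 in the tumours labelled Myc/Bcl6. Both ranges lay below the 10.63 to 11.57 of GC cells, so the Bcl6 label is not borne out by a high Bcl6 value either.

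Promoter sequences are shown for 4 members that were high in the same tumours, to set a B-cell chemokine gene beside matrix genes. They are the 250 bases before the transcript start, from RefSeq on GRCm38.p6, written 5′ to 3′ on the gene's strand, with matches to the TATAAA box, the CCAAT box and the GGGCGG box on either strand in capitals.
Cxcl13, chr5:95956689-95956938, plus strand: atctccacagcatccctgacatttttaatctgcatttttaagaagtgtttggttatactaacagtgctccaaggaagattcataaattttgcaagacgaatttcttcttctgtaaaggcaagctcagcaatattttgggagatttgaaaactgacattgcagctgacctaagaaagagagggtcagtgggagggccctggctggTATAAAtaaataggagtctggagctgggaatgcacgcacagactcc
Col3a1, chr1:45311288-45311537, plus strand: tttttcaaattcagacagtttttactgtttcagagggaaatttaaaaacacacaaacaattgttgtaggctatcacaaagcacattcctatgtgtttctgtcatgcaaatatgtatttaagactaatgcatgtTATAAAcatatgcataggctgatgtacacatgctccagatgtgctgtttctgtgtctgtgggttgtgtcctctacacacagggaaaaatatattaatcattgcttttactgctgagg
Col1a2, chr6:4505368-4505617, plus strand: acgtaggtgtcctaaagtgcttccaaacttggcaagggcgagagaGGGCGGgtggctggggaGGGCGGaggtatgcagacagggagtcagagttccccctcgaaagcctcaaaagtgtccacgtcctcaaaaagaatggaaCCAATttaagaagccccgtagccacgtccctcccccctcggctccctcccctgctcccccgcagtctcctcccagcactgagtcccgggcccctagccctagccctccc
Igfbp7, chr5:77408046-77408295, minus strand: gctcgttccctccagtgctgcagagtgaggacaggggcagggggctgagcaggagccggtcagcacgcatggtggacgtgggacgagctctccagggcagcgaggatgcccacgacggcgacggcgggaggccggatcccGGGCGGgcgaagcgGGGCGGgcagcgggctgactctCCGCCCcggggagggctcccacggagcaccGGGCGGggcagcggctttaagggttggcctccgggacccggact

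The sequences differ in kind. Cxcl13 held TATAAA from -46 to -41, counted from the start, and Col3a1 held it from -117 to -112. Col1a2 held CCAAT once and GGGCGG at 2 places, and Igfbp7 held GGGCGG at 4 places, 1 of them on the opposite strand. Promoters of 27 of the 40 members were in the table: 4 of them held the TATAAA box, 6 the CCAAT box and 15 the GGGCGG box, and the shares over 27025 promoters of the same length were 12.97%, 34.46% and 32.94%. No member promoter matched the CArG box, the serum response factor motif, searched only as CC, 6 A or T bases and GG (1.40% of all promoters). Sites that depart from that pattern were not searched, so a member without a match may still hold one. The NF-kB site was matched by 2 (7.01% of all promoters). At such shares few matches or none among 27 promoters say little, and the promoters of Tagln and Vcam1 were not in the table. A match is a description of letters and does not show binding. In the same table the transcript starts of Col4a1 and Col4a2, which make the 2 common chains of type IV collagen, lay 21 bases apart on opposite strands.

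Members were called where limma's adjusted p was below 0.05 after Benjamini-Hochberg adjustment over all 12393 genes. Across all 13 tumours against all 22 normal arrays, 25 of 39 members were higher and 2 lower, with 18.8% and 20.6% of all genes called. Clu had the third largest rise of all genes in that comparison. That contrast averaged unlike tumours: no member had every tumour array above, or every one below, all normal arrays (0.153% and 0.0323% of all genes), and each tumour type is therefore described against 1 normal stage, GC or pro-B cells.

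**Figure D1:**
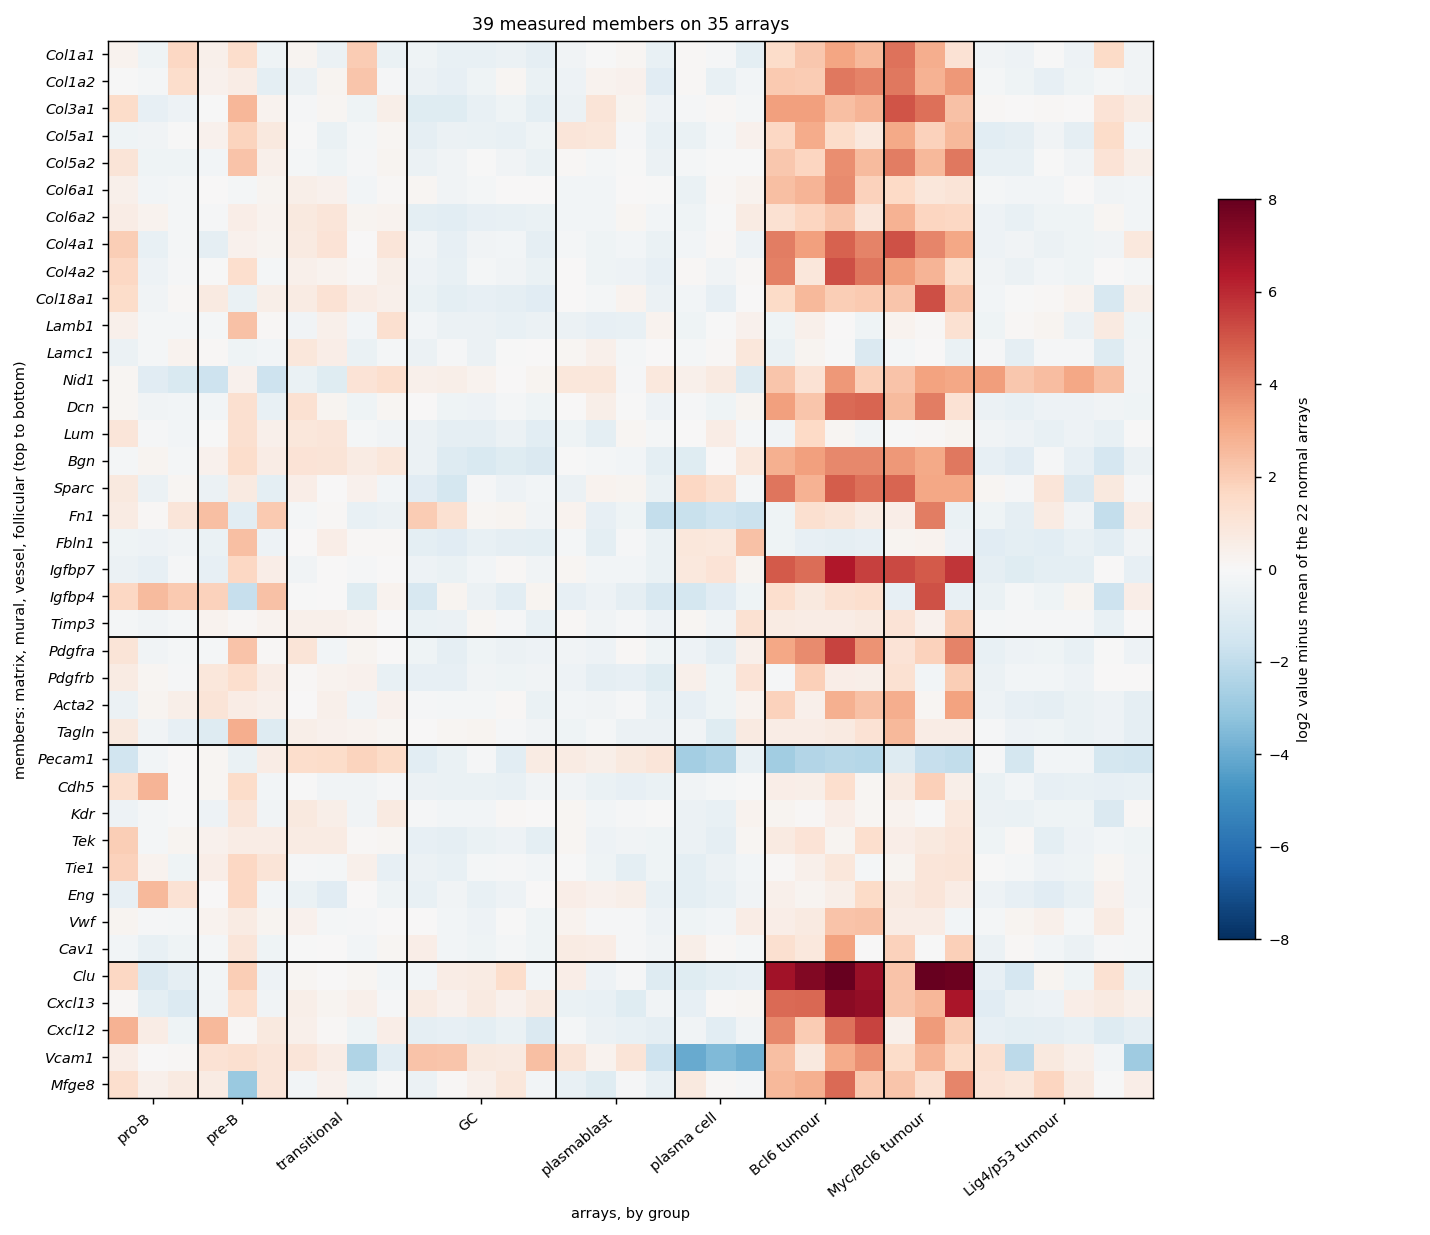
Rows are the 39 measured members, in order of class, and columns are the 35 arrays by group. Colour gives the log2 value minus the mean of the 22 normal arrays (red higher, blue lower). Most matrix and follicular rows are red on the 4 Bcl6 and 3 Myc/Bcl6 arrays, whereas on the 6 Lig4/p53 arrays Nid1 is the row that stands out, in replicates 1 to 5.

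In the Bcl6 tumours 28 of 39 members were higher and 1 was lower than in GC cells, where 13% and 13.9% of all genes were called. By class, 17 of 22 matrix, 3 of 4 fibroblast and mural, 4 of 8 vessel and 4 of 5 follicular stroma genes were higher. The median log2 difference was 2.75 for matrix, 1.59 for fibroblast and mural, 1.07 for vessel and 4.66 for follicular stroma genes, beside 0.21 for all genes. For 31 members every Bcl6 tumour array lay above every GC array, as it did for 17.8% of all genes. Of 40 other probe sets of the members, 37 differed in the same direction as the one used, some by much less. The tumours labelled Myc/Bcl6, set against the same GC arrays, also had 28 members higher and 1 lower, but 27.2% of all genes were called higher there and 20.9% lower, 48.1% in all. For 31 members every one of these tumours lay above every GC array, as for 30.6% of all genes. Their medians were 2.87, 1.84, 1.07 and 2.67 for the classes in the same order, beside 0.31 for all genes. The 3′ to 5′ difference moved with both contrasts. With it as a covariate 23 and 22 members were called, but these counts cannot part RNA quality from tumour, as set out below.

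**Figure D2:**
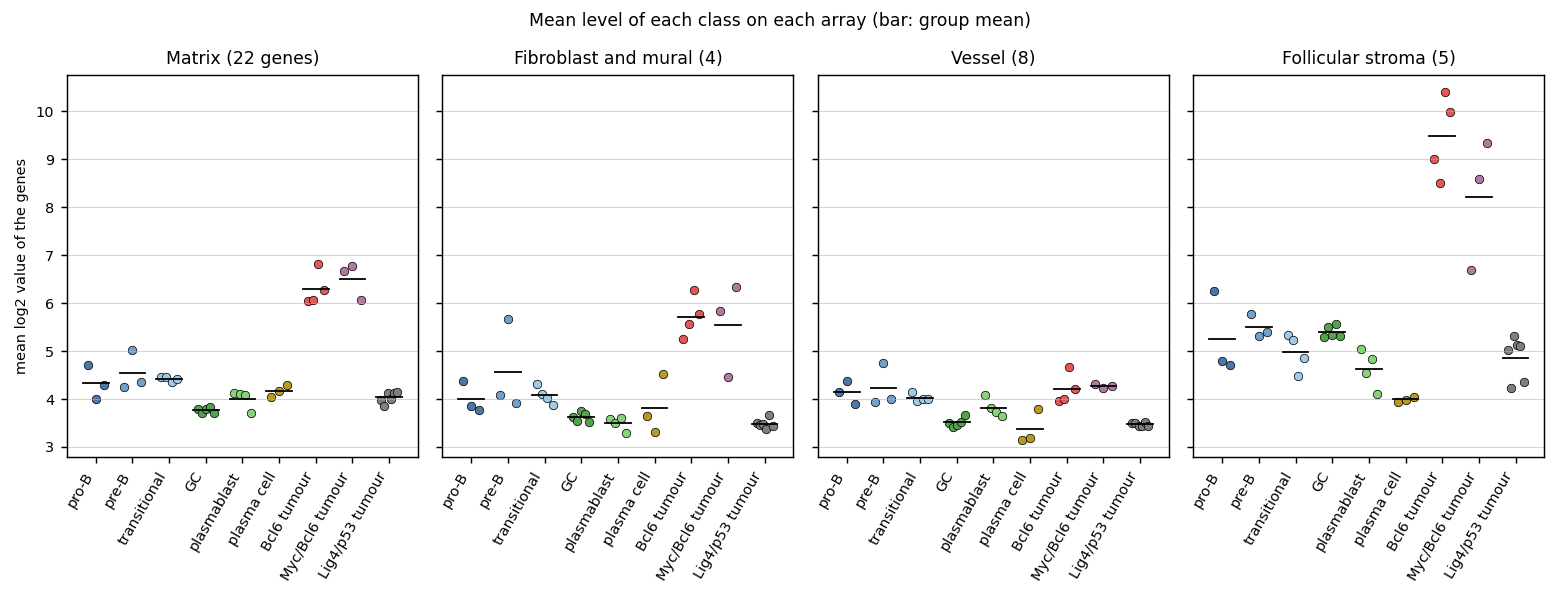
Each point is 1 array and gives the mean log2 value over the genes of a class. Bars are group means. Matrix means are 6.05 to 6.81 in Bcl6 tumours and 3.85 to 4.14 in Lig4/p53 tumours; vessel means of the Bcl6 tumours lie within the range of the normal arrays.

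Clu, a secreted chaperone that follicular dendritic cells express at a high level, stood at 11.41, 12.09, 12.72 and 11.59 in the Bcl6 tumours and at 4.50, 5.32, 5.35, 6.13 and 4.50 in GC cells. The tumour arrays were far above every GC array. The difference was 6.79 ± 0.74 on the log2 scale (SE; adjusted p = 4.91e-08 by limma), or 111-fold. In the tumours labelled Myc/Bcl6 Clu was 6.99, 12.77 and 12.58, a difference of 5.62 ± 0.81 (adjusted p = 3.12e-06 by limma). Replicate 1 lay well below the other pair, though still above all 22 normal arrays (3.55 to 6.66). Without it the difference was 7.52, and without either of the others it was 4.63 or 4.72. The other 3 probe sets of Clu differed by 5.90 to 6.82 between Bcl6 tumours and GC cells. On the dimmest of them the lowest of the 7 Bcl6 and Myc/Bcl6 tumours was 3.16, within the range of the normal arrays (2.30 to 5.09).

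Cxcl13 was 8.87, 8.90, 11.55 and 11.33 in the Bcl6 tumours and 4.96, 4.65, 5.04, 4.69 and 5.06 in GC cells. All tumour arrays were above all GC arrays, with replicates 3 and 4 higher than 1 and 2. The difference was 5.28 ± 0.60 (adjusted p = 9.06e-08 by limma). The Myc/Bcl6 arrays read 6.54, 6.94 and 10.86, so replicate 3 stood apart, and the difference was 3.23 ± 0.65 (adjusted p = 0.00023 by limma), or 1.86 without that array (adjusted p = 0.0107). Clu and Cxcl13 thus did not single out the same array among these 3 tumours: Clu was high in replicates 2 and 3, Cxcl13 in replicate 3. A second probe set of Cxcl13, almost as bright over all arrays, differed by 3.14 between Bcl6 tumours and GC cells. On it the 7 Bcl6 and Myc/Bcl6 tumours read 5.67 to 9.83 and the normal arrays 3.99 to 6.96, so the ranges overlapped.

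Cxcl12, the chemokine of reticular and marrow stroma, was 7.48, 5.66, 7.95 and 9.005 in the Bcl6 tumours and 2.49 to 3.09 in the 5 GC arrays, a difference of 4.66 ± 0.55 (adjusted p = 2.15e-07 by limma). On the Myc/Bcl6 arrays it was 4.02, 7.01 and 5.58 and differed by 2.67 ± 0.60 (adjusted p = 0.000726 by limma). With the 3′ to 5′ covariate that second difference was 1.89 (adjusted p = 0.0767). A dimmer probe set of Cxcl12 differed by 1.65 between Bcl6 tumours and GC cells. Mfge8, which bridges apoptotic cells to phagocytes and is made by follicular dendritic cells, was 8.30, 8.53, 10.24 and 7.79 in the Bcl6 tumours against 5.24 to 6.60 in GC cells, and rose by 2.88 ± 0.56 (adjusted p = 0.000311 by limma). Vcam1, an adhesion molecule of stroma and activated vessels, was the follicular member that was not called: 8.97, 7.36, 9.56 and 10.24 in the Bcl6 tumours against 8.83, 8.78, 7.34, 7.28 and 8.97 in GC cells. The ranges overlapped, and its probe set was already bright in sorted B cells.

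**Figure D3:**
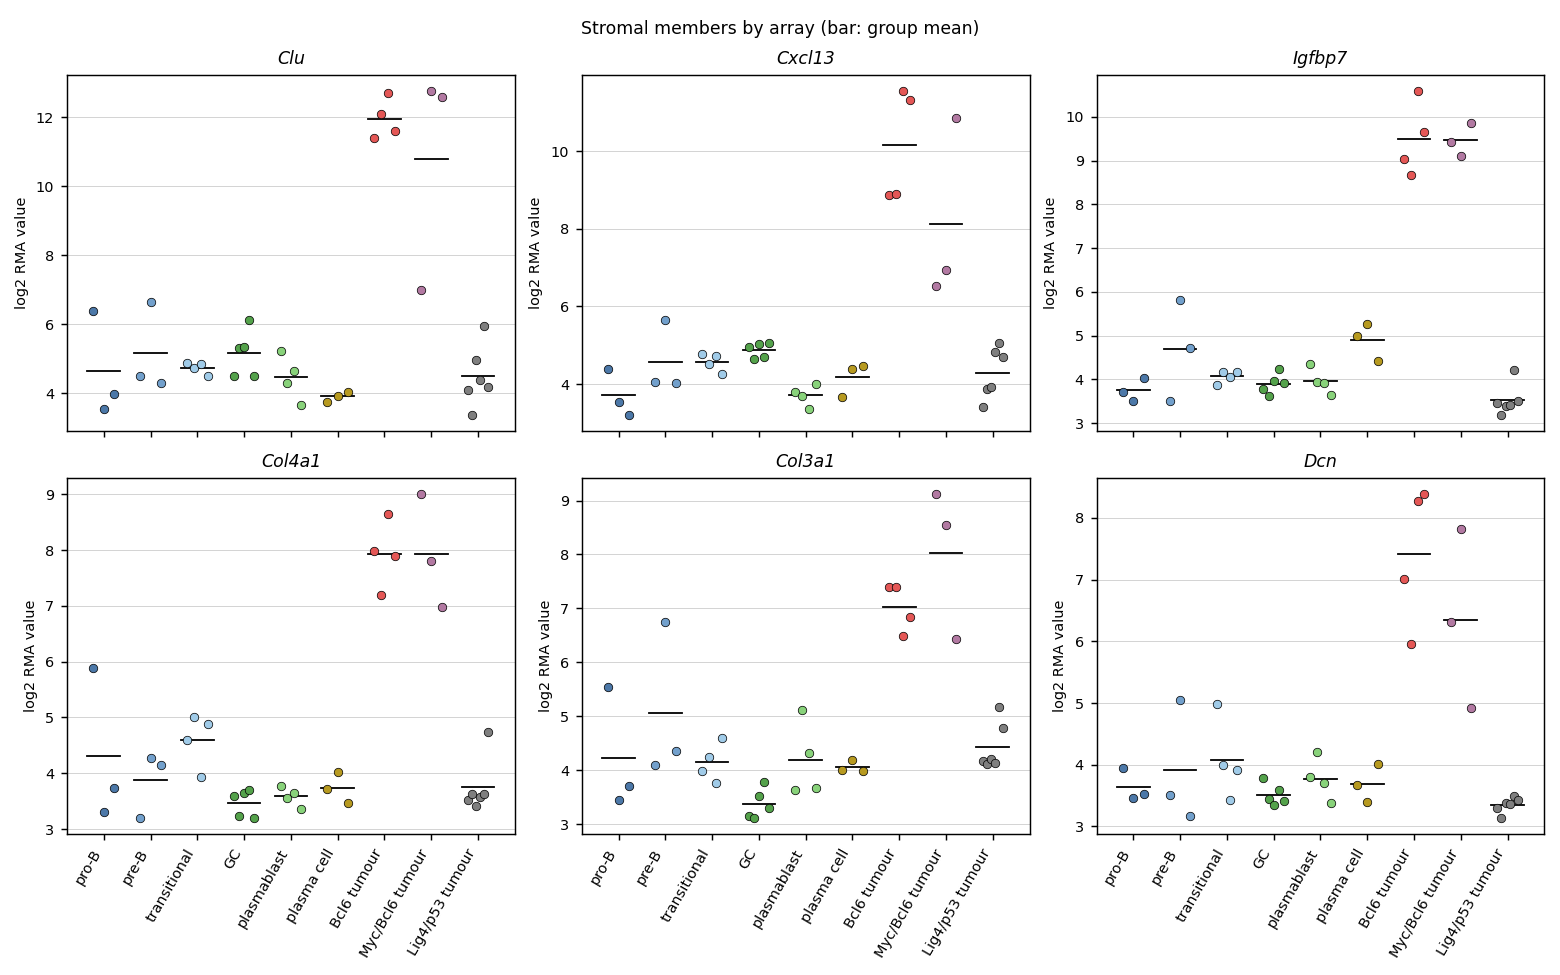
Each panel is 1 member, with 1 point per array, log2 RMA value on the vertical axis and bars at group means. In all 6 panels the 4 Bcl6 tumours lie above the GC arrays; for Clu replicate 1 of the tumours labelled Myc/Bcl6 is at 6.99 against 12.77 and 12.58, and for Cxcl13 only replicate 3 exceeds 10.

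Among basement membrane genes Col4a1 was 7.99, 7.19, 8.65 and 7.89 in the Bcl6 tumours, 9.01, 7.80 and 6.98 in the tumours labelled Myc/Bcl6, and 3.59, 3.23, 3.64, 3.70 and 3.20 in GC cells. Neither tumour group overlapped the GC arrays, and both differences were 4.46, with SE of 0.41 and 0.45 (adjusted p = 2.21e-09 and 8.48e-09 by limma). Col4a2, its partner chain, was 7.28, 4.19, 8.43 and 7.57, then 6.61, 5.98 and 4.73, against 2.66 to 3.10 in GC cells, with Bcl6 tumour replicate 2, a narrow array, the lowest. Col4a1 and Col4a2 correlated with r = 0.74 over these 7 tumours and 0.76 over the other 28 arrays, as a description of arrays that share groups and normalization.

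Col18a1, the collagen from which endostatin is cut, rose by 2.77 ± 0.44 in the Bcl6 tumours and by 3.94 ± 0.47 in the tumours labelled Myc/Bcl6 (adjusted p = 1.88e-05 and 1.96e-07 by limma). Its highest value, 9.57, was in Myc/Bcl6 replicate 2, and without that array the second difference was 2.97. That array also had a high mean over liver genes (11.99), whose part in the Col18a1 value was not tested. A dimmer probe set of Col18a1 differed by 1.11 between Bcl6 tumours and GC cells. On it the Bcl6 and Myc/Bcl6 tumours (3.78 to 9.85) overlapped the normal arrays (3.41 to 5.89). Nid1, which links laminin to collagen IV, was 6.86, 5.76, 8.09 and 6.51 in the Bcl6 tumours against 4.66 to 5.09 in GC cells. It rose by 1.89 ± 0.58 (adjusted p = 0.015 by limma), but by 0.57 (adjusted p = 0.731) with the 3′ to 5′ covariate and by 1.47 (adjusted p = 0.0715) without Bcl6 tumour replicate 3. The laminin chains were not called. Lamb1 differed by 0.39 ± 0.39 and Lamc1 by -0.18 ± 0.31 between Bcl6 tumours and GC cells. The 2 other probe sets of Lamb1 differed by 3.44 and 1.72, so its reading depended on the probe set.

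Every interstitial collagen measured was higher in both tumour groups than in GC cells. Col1a1, a chain of type I collagen, was 6.07, 6.76, 7.72 and 7.18 in the Bcl6 tumours, 8.91, 7.47 and 5.74 in the tumours labelled Myc/Bcl6, and 3.89 to 4.24 in GC cells. Its partner Col1a2 was 6.38, 6.32, 8.47 and 8.27, then 8.47, 7.08 and 7.73, against 3.62 to 4.42. Col3a1, the collagen of reticular fibres, was 7.39, 7.40, 6.50 and 6.84, then 9.12, 8.54 and 6.44, against 3.12 to 3.79. None of these ranges overlapped the GC range, and the arrays ranked differently for each chain. The Bcl6 tumour differences were 2.89 ± 0.53, 3.46 ± 0.47 and 3.65 ± 0.48 in that order. Dimmer probe sets of the same genes differed by 2.86, 2.61 and 1.15. Col5a1 and Col5a2, which start collagen fibrils, rose by 2.28 ± 0.42 and 2.85 ± 0.43, and Col6a1 and Col6a2, of the microfibrils around cells, by 2.73 ± 0.28 and 2.24 ± 0.28. The Col6a1 rise in the tumours labelled Myc/Bcl6 was 1.20 ± 0.31 (adjusted p = 0.00222 by limma), which renewed quantile normalization took to 0.72 (adjusted p = 0.074).

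The secreted matrix proteins split. Igfbp7, an insulin-like growth factor binding protein deposited around vessels, was 9.04, 8.66, 10.60 and 9.65 in the Bcl6 tumours, 9.43, 9.10 and 9.87 in the tumours labelled Myc/Bcl6, and 3.51 to 5.82 on the 22 normal arrays. The 7 tumours formed a narrow band far above the rest. Its differences from GC cells were 5.59 ± 0.35 and 5.57 ± 0.38 (adjusted p = 4.71e-13 and 3.99e-12 by limma). Its 2 dimmer probe sets differed by 1.87 and -0.05.

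Sparc, which binds collagen and is made by fibroblasts and endothelium, was 9.29, 7.82, 9.86 and 9.45 in the Bcl6 tumours against 3.61 to 4.95 in GC cells, and Bgn, a small proteoglycan, was 7.06, 7.52, 8.07 and 8.07 against 3.01 to 3.78. Both also stood above all normal arrays on the probe sets used. A dimmer probe set of Sparc differed by 2.74 between Bcl6 tumours and GC cells. On it the Bcl6 and Myc/Bcl6 tumours (3.10 to 6.88) overlapped the normal arrays (2.75 to 4.21), whereas the other probe sets of Bgn kept these tumours above. Dcn, the proteoglycan that decorates collagen fibrils, was 7.01, 5.96, 8.27 and 8.39, then 6.31, 7.83 and 4.92 in the tumours labelled Myc/Bcl6, where replicate 3 fell just below the highest normal array (5.05). Dcn rose by 3.89 ± 0.45 and 2.83 ± 0.49. Timp3, an inhibitor of matrix proteases, rose by 0.97 ± 0.28 and 1.47 ± 0.31, and after renewed quantile normalization the first was 0.59 (adjusted p = 0.181).

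Other matrix members gave no such difference. Fn1, the fibronectin gene, was 5.39, 7.00, 6.78 and 6.37 in the Bcl6 tumours and 7.77, 6.96, 5.87, 5.93 and 5.45 in GC cells, with a difference of -0.01 ± 0.68. Fbln1, a fibulin of elastic fibres, differed by 0.15 ± 0.38. Lum, a proteoglycan of collagen-rich tissue, differed by 0.94 ± 0.35 (adjusted p = 0.0428 by limma), and lost its call in 13 of 16 alternatives. Without Bcl6 tumour replicate 2, where it was 4.72 against 2.80 to 3.29 in the others, Lum differed by 0.50 (adjusted p = 0.314).

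Igfbp4, another binding protein of insulin-like growth factors, was 6.71, 6.14, 6.63 and 6.75 in the Bcl6 tumours against 4.10 to 5.63 in GC cells. The arrays did not overlap, yet the difference of 1.60 ± 0.76 was not called (adjusted p = 0.114 by limma). Myc/Bcl6 replicates 1 to 3 read 4.74, 10.49 and 4.80. The high array, replicate 2, also had the highest Fn1 (9.81), and its mean over 7 liver genes was 11.99 against 4.14 and 4.32 in the other pair and 3.30 to 3.49 in GC cells. Liver makes Igfbp4 and fibronectin. The same array was the highest of all 35 for Clu (12.77) and Col18a1 (9.57). The part of liver RNA in any of these values was not tested. Without replicate 2 the differences from GC cells were -0.18 for Igfbp4 and -0.68 for Fn1, and 28 members were called: Pecam1, Tie1 and Eng lost the call, and Lamb1 and Tagln gained it (adjusted p = 0.0446 and 0.0423).

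Fibroblast and mural genes followed the collagens in part. Pdgfra, the growth factor receptor of fibroblasts, was 5.89, 6.59, 8.25 and 6.39 in the Bcl6 tumours against 2.10 to 2.49 in GC cells, and rose by 4.42 ± 0.48 (adjusted p = 4.02e-08 by limma). The Myc/Bcl6 arrays read 3.88, 4.63 and 6.81, a rise by 2.75 ± 0.52 (adjusted p = 0.000125 by limma). A second, dimmer probe set of Pdgfra differed by 0.29 between Bcl6 tumours and GC cells. On it the 7 tumours read 2.47 to 3.91, within the range of the normal arrays (2.30 to 5.16). Acta2, smooth muscle actin, was 6.05, 4.58, 7.03 and 6.50, then 7.09, 4.32 and 7.40, against 3.65 to 4.24 in GC cells. Both groups held 1 array near the GC range, and the rises were 2.04 ± 0.43 and 2.27 ± 0.46. A dimmer probe set of Acta2 differed by 0.67 between Bcl6 tumours and GC cells. Tagln, another smooth muscle gene, was not called (0.76 ± 0.50 and 1.25 ± 0.55).

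Pdgfrb, the receptor of pericytes, rose by 1.13 ± 0.36 and 1.41 ± 0.39 (adjusted p = 0.0197 and 0.00457 by limma). Without Bcl6 tumour replicate 2 the first difference was 0.73 (adjusted p = 0.155), and without Myc/Bcl6 replicate 3 the second was 0.93 (adjusted p = 0.0807). A second probe set of Pdgfrb, dimmer on average, stood at 6.39 to 10.07 in the 7 tumours and 2.15 to 4.91 on the normal arrays, and differed by 4.50 between Bcl6 tumours and GC cells.

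Vessel genes moved least among the classes by median. Tek, the angiopoietin receptor of endothelium, was 3.84, 4.19, 3.36 and 4.45 in the Bcl6 tumours against 2.31 to 2.70 in GC cells and rose by 1.47 ± 0.31 (adjusted p = 0.000653 by limma), but pro-B replicate 1 (5.10) was higher than any tumour. Vwf, the clotting factor stored in endothelium, was 3.70, 3.85, 5.41 and 5.52 against 2.72 to 3.17 and rose by 1.66 ± 0.32 (adjusted p = 0.000228 by limma). In the tumours labelled Myc/Bcl6 Vwf was 3.75, 3.73 and 2.94 and was not called. Cdh5, the cadherin of endothelial junctions, rose by 1.13 ± 0.37 and Cav1, of caveolae, by 1.44 ± 0.42, and both lost the call without Bcl6 tumour replicate 3 (0.89 and 0.82). Kdr, the main receptor for vascular endothelial growth factor, and Tie1, the partner of Tek, were not called in Bcl6 tumours. Eng, a co-receptor for transforming growth factor beta, differed by 1.01 ± 0.43 (adjusted p = 0.0766 by limma). Tie1 and Eng were called in the tumours labelled Myc/Bcl6, at 1.03 ± 0.36 and 1.11 ± 0.46 (adjusted p = 0.0192 and 0.0475 by limma), and Eng lost the call without any 1 of those 3 arrays. Tie1 lost it without replicate 2 or 3 (0.91 and 0.88), with array weights and with the 3′ to 5′ covariate, and was 0.39 (adjusted p = 0.42) after renewed quantile normalization.

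With the 3′ to 5′ difference as a covariate 6 of the 29 Bcl6 tumour calls were lost, Nid1, Lum and the vessel genes Pecam1, Cdh5, Tek and Cav1, and of the vessel calls Vwf was kept. Tek lost the call with its difference almost the same (1.45, adjusted p = 0.0503), whereas Pecam1 went to -0.38 and Cdh5 to 0.66. The same covariate left Clu at 6.16, Cxcl13 at 5.50 and Igfbp7 at 5.10. Plasma cell replicates 1 and 2, whose 3′ to 5′ difference and low 18S signal (4.02 and 4.21) lay in the range of the tumours or near it, had matrix means of 4.05 and 4.17, and replicate 3 had 4.29. The covariate was fitted beside the group means, so its slope came only from arrays that differed within a group. The widest such range was in plasma cells (0.45 to 4.59). Bcl6 tumours (3.65 or more) and tumours labelled Myc/Bcl6 (3.23 or more) did not overlap GC cells (1.55 or less). The covariate therefore cannot part RNA quality from tumour in these contrasts, whether a call was kept or lost. The part of RNA quality in the tumour values was not tested.

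Pecam1 was the member that was lower. This adhesion molecule of endothelium is also carried by B cells. It was 3.62, 4.07, 4.17 and 4.09 in the Bcl6 tumours and 5.53, 5.83, 6.27, 5.53 and 7.05 in GC cells, a fall by 2.05 ± 0.41 (adjusted p = 0.000335 by limma). No tumour array reached the GC range. In the tumours labelled Myc/Bcl6 the difference was -1.27 ± 0.44 (adjusted p = 0.0191 by limma), and 0.22 with the 3′ to 5′ covariate. Of 7 B-lineage markers 3 were lower and 1 higher in Bcl6 tumours than in GC cells, and their part in the Pecam1 value was not tested.

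**Figure D4:**
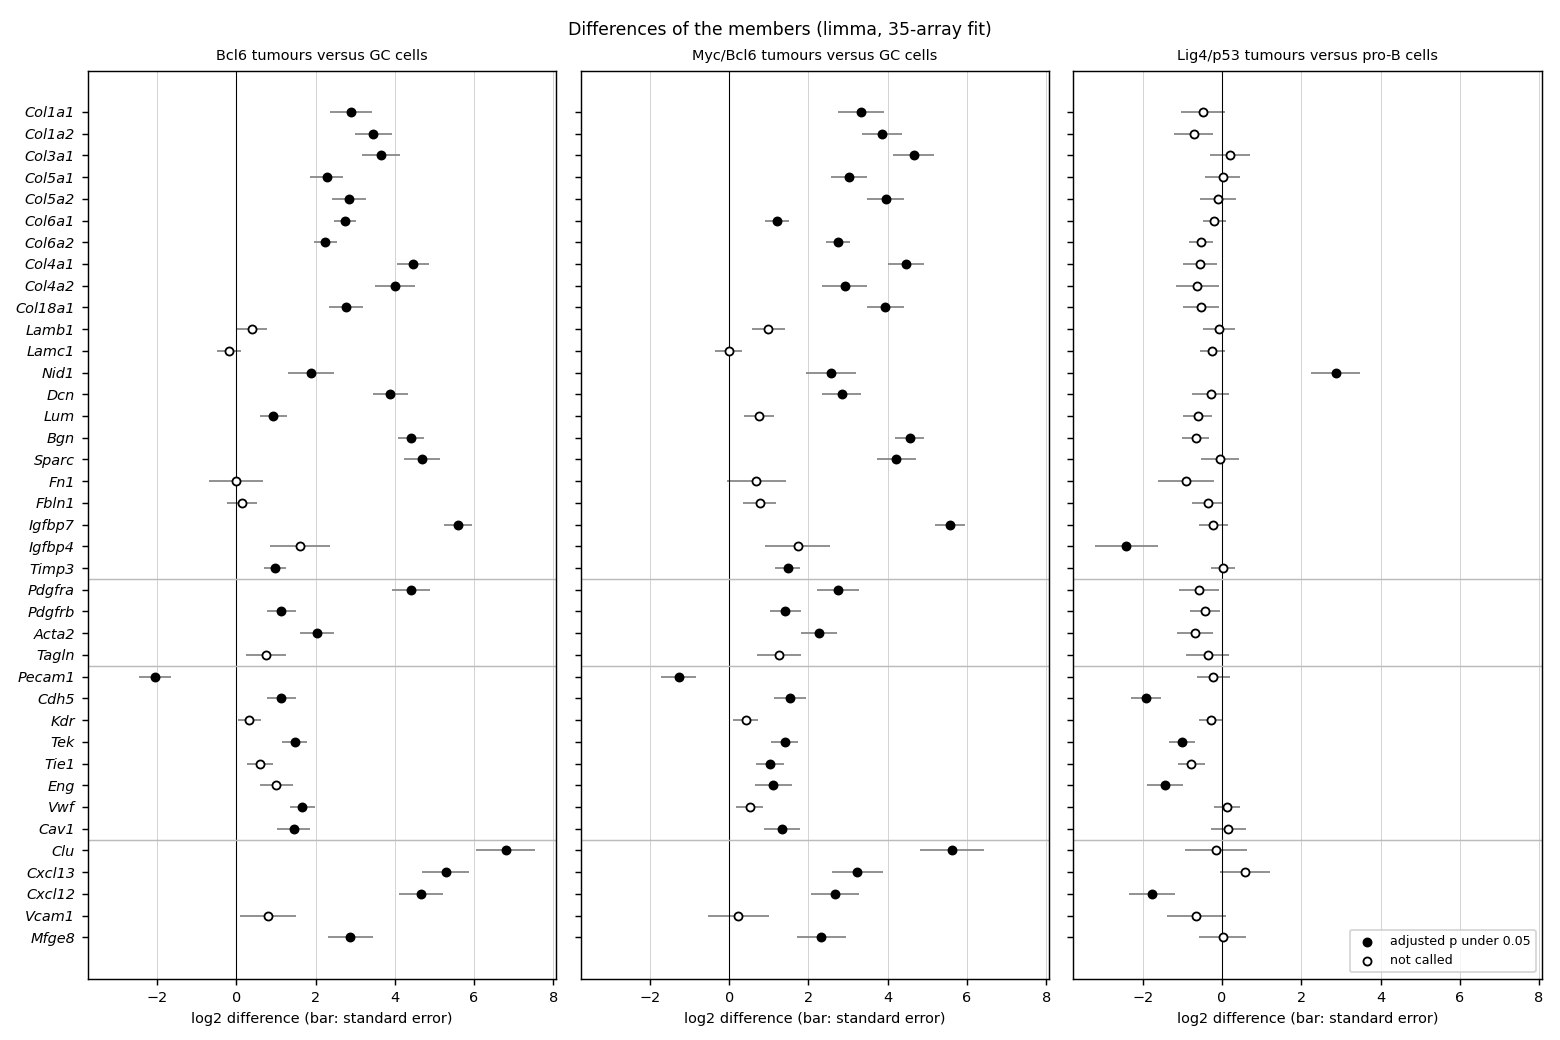
Log2 differences of the 39 members in 3 comparisons, with standard errors as bars; filled points have an adjusted p under 0.05 in limma. Grey lines part the classes. The first 2 panels share the GC arrays and run mostly above 0, and in the third 1 member is called higher and 5 lower.

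The Lig4/p53 tumours differed from the other tumours across the classes. Against the Bcl6 tumours 26 of 39 members were lower and 1, Pecam1, was higher, where 10.9% and 15.5% of all genes were called: 15 matrix, 2 fibroblast and mural, 4 vessel and all 5 follicular stroma genes fell. This contrast shares the Bcl6 arrays with the one above. The 3′ to 5′ difference moved with this contrast too, at 2.25 to 3.64 in Lig4/p53 tumours and 3.65 or more in Bcl6 tumours. With that difference as a covariate Pecam1 (0.804) and Cdh5 (-0.953) lost the call (adjusted p = 0.0858 and 0.0851 by limma). The covariate has the limit given above, and the part of RNA quality here was not tested. Every Lig4/p53 array lay below every Bcl6 array for 24 members, as for 8.71% of all genes. Clu had a lowest, median and highest value of 3.38, 4.29 and 5.94 in the 6 Lig4/p53 tumours, and the difference from the Bcl6 tumours was -7.47 ± 0.72 (adjusted p = 4.33e-09 by limma). Igfbp7 was 3.19, 3.43 and 4.22, Col4a1 3.40, 3.60 and 4.74, Cxcl13 3.41, 4.30 and 5.05, and Dcn 3.14, 3.37 and 3.49. All of these were within the range of the normal arrays or just below it.

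Against pro-B cells, the earliest B-cell stage sampled, 1 member of 39 was higher and 5 were lower, with 13.2% and 7.91% of all genes called. The higher one was Nid1, at 7.97, 6.81, 7.08, 7.74, 7.04 and 4.37 in replicates 1 to 6 and at 4.80, 3.70 and 3.41 in pro-B cells. Replicate 6 lay within the pro-B range and the other 5 above all 22 normal arrays (2.97 to 6.00). The difference was 2.86 ± 0.61 (adjusted p = 0.00102 by limma). A second, dimmer probe set of Nid1 gave no such rise: its mean was 3.24 in the Lig4/p53 tumours, within its range on the normal arrays (2.82 to 4.85), and it differed by 0.38 between Bcl6 tumours and GC cells. In the tumours labelled Myc/Bcl6 Nid1 rose by 2.58 ± 0.63 over GC cells (adjusted p = 0.00155 by limma), and by 1.40 (adjusted p = 0.192) with the 3′ to 5′ covariate. Col4a1, of the same membrane, did not pass the test in the Lig4/p53 tumours (-0.56 ± 0.43, adjusted p = 0.374 by limma).

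For 3 members every tumour array lay below every pro-B array, as for 8.98% of all genes. Of the 5 lower members, 4 varied widely among the pro-B arrays. Cdh5 was 5.40, 6.82 and 4.12 in pro-B cells and 3.39 to 3.87 in the tumours, and fell by 1.93 ± 0.39 (adjusted p = 0.000553 by limma). Cxcl12 was 6.39, 4.25 and 3.29 against 2.59 to 3.02 and fell by 1.77 ± 0.58, Tek was 5.10, 2.96 and 3.32 against 2.34 to 3.19 and fell by 1.01 ± 0.33, and Eng was 3.38, 6.64 and 5.19 against 3.16 to 4.37 and fell by 1.44 ± 0.45. The high array was replicate 1 for Cxcl12 and Tek and replicate 2 for Cdh5 and Eng. Without pro-B replicate 1, a narrow array, 3 members were called: the differences were then -0.90 for Cxcl12 and -0.35 for Tek (adjusted p = 0.43 and 0.563), and without replicate 2 it was -0.65 for Eng (adjusted p = 0.284).

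Igfbp4 was 7.04, 7.93 and 7.46 in pro-B cells and 3.73, 5.12 and 5.94 (lowest, median and highest) in the Lig4/p53 tumours, with no overlap, a fall by 2.42 ± 0.80 (adjusted p = 0.029 by limma). Leaving out any pro-B array took its adjusted p to between 0.0566 and 0.0816. Igfbp4 was also 7.21, 3.57 and 7.70 in pre-B cells, where the low array was the narrow replicate 2, and 4.40 to 5.64 in transitional cells.

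Among the normal stages few members were called. Between transitional and pre-B cells there was none in limma (8 of 39 at an unadjusted p under 0.05), with 2.93% of all genes called higher and 2.91% lower, 5.84% in all. Transitional arrays lay all above pre-B arrays for 1 member (8.42% of all genes) and all below for 5 (6.56%). Between plasmablasts and GC cells there was again none (7 at an unadjusted p under 0.05), with 0.121% of all genes called higher and 0.557% lower. Plasmablast arrays lay all above GC arrays for 3 members (8.4% of all genes) and all below for 1 (7.42%). Cxcl13, at 3.79, 3.70, 3.37 and 4.01 in plasmablasts, lay below all 5 GC arrays (4.65 to 5.06) and came closest there, with a difference of -1.16 ± 0.32 and an adjusted p of 0.102 by limma.

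GC cells had 1 member higher and 5 lower than transitional cells, with 5.29% and 8.21% of all genes called. Bgn was 5.36, 5.30, 4.93 and 5.14 in transitional cells and 3.01 to 3.78 in GC cells and fell by 1.90 ± 0.32 (adjusted p = 0.000711 by limma). Pecam1 was 7.80, 7.86, 8.20 and 7.89 in transitional cells, the highest of any stage, and was also lower by 1.90 in GC cells (SE 0.42). Col18a1, Col6a2 and Tek fell by 1.43, 1.27 and 1.01, and all 5 lower members were without overlap. Tek lost the call without any 1 of the 9 arrays and with the replicate block (adjusted p = 0.111), and renewed quantile normalization took it to -0.56 and Col18a1 to -1.08 (adjusted p = 0.415 and 0.139). GC arrays lay all below transitional arrays for 12 members, as for 25.0% of all genes. Vcam1 was 7.55, 7.16, 4.17 and 5.71 in transitional cells and higher in GC cells by 2.09 ± 0.60 (adjusted p = 0.0248 by limma), with overlapping ranges, and by 1.43 (adjusted p = 0.0968) without transitional replicate 3. All transitional arrays were of strain 129 and all GC arrays of B6; with strain as a covariate, held only by the pro-B arrays, no member was called. Bgn was then -1.72, Pecam1 -2.79 and Vcam1 2.26, close to or above their size without it, while Tek was -0.30, Col6a2 -0.67 and Col18a1 -0.97. Strain and stage cannot be told apart here. The median of all genes differed by -0.27 in the same contrast.

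Plasma cells had 2 members higher and 2 lower than plasmablasts, with 8.9% and 5.39% of all genes called. Vcam1 was 2.53, 3.04 and 2.73 in plasma cells and 7.61, 6.87, 7.58 and 4.91 in plasmablasts and fell by 3.98 ± 0.68 (adjusted p = 0.000321 by limma). Pecam1 was 3.68, 3.91 and 5.82 against 6.87 to 7.38 and fell by 2.63 ± 0.48 (adjusted p = 0.000581 by limma). These 2 members had all plasma cell arrays below all plasmablast arrays (12.4% of all genes), and 3 members had all above (24.1%). Fbln1 was 4.91, 4.86 and 6.33 in plasma cells against 3.19 to 3.90, a rise by 1.77 ± 0.50 (adjusted p = 0.0187 by limma), and Pdgfrb rose by 1.06 ± 0.33 (adjusted p = 0.0339 by limma). Without plasmablast replicate 2 both lost the call (1.64 and 1.06; adjusted p = 0.0571 and 0.0707), which left 2 members called, and without plasma cell replicate 3 they differed by 1.29 and 0.71 (adjusted p = 0.117 and 0.192). The plasma cells came from bone marrow and the plasmablasts from spleen, so organ and stage cannot be told apart, and their 3′ to 5′ differences were 4.59, 4.46 and 0.45 against 0.93 to 1.16.

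**Figure D5:**
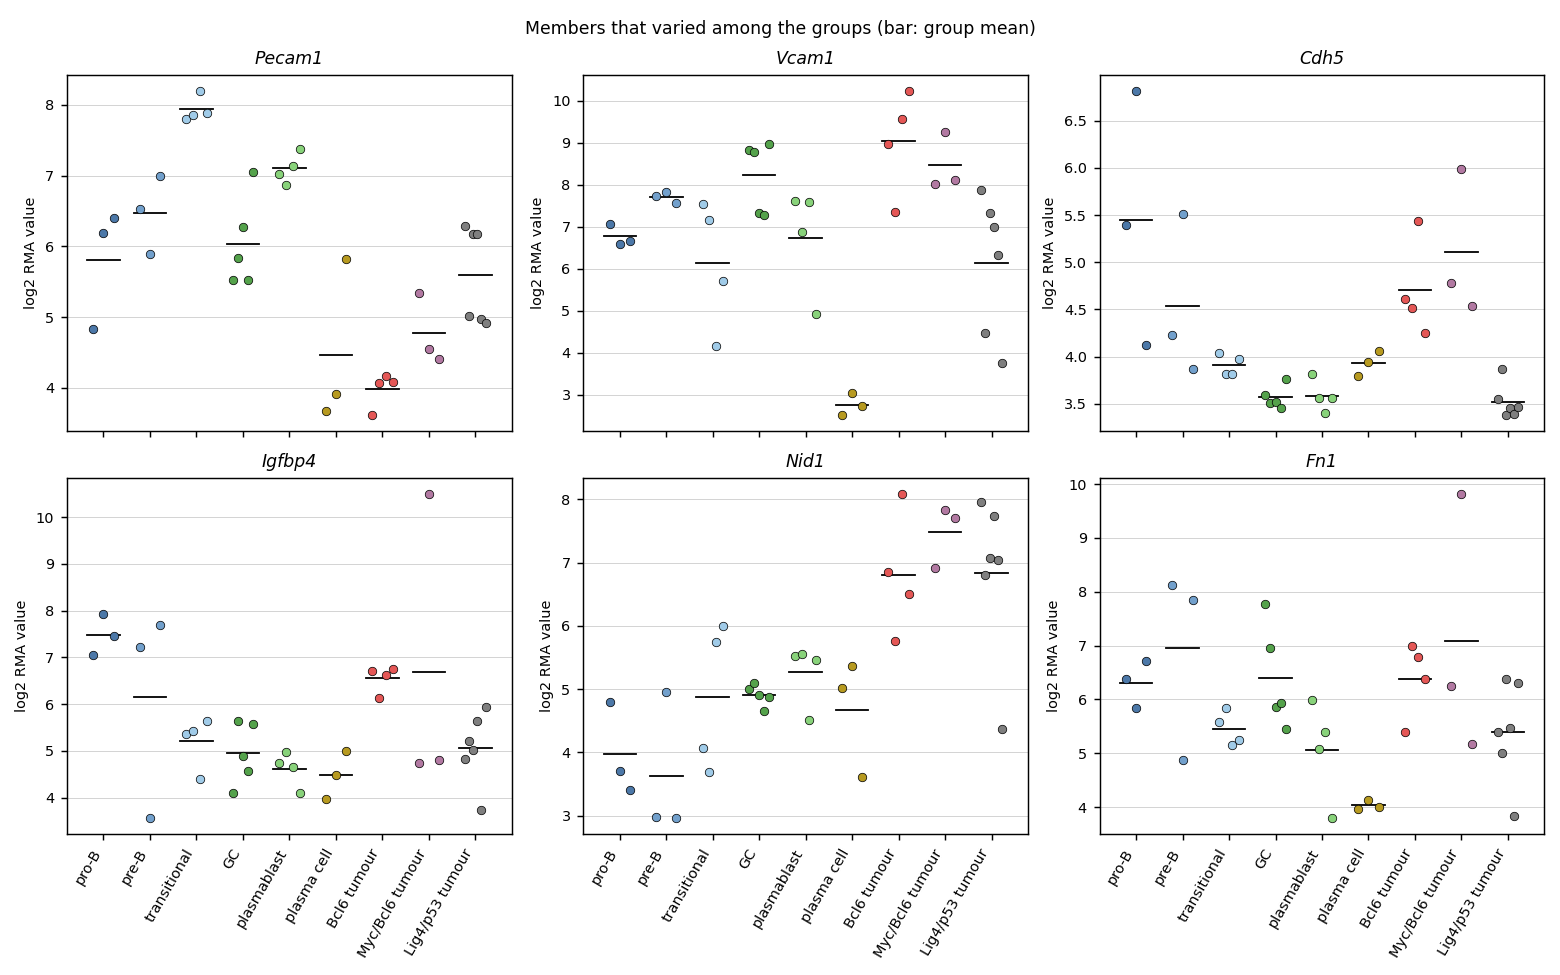
Members that varied among B-cell stages or between tumours, 1 panel each, with 1 point per array, log2 RMA value on the vertical axis and bars at group means. Pecam1 is highest in transitional cells, Vcam1 lowest in plasma cells, Igfbp4 high in pro-B and pre-B cells apart from 1 pre-B array, and Nid1 high in 5 of 6 Lig4/p53 tumours.

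Other genes of the same tissues, from lists of known markers that hold no member, were counted in the same comparisons. In Bcl6 tumours against GC cells 13% of all genes were called higher and 13.9% lower. Of 38 other matrix genes 20 were higher and none lower in Bcl6 tumours than in GC cells (26 at an unadjusted p under 0.05 in limma), among them Fstl1, a follistatin-like glycoprotein (3.12 ± 0.37), and the protease Mmp2 (2.98 ± 0.43). Of 25 other vessel genes 13 were higher and 1 lower, with Cd34 up by 2.12 ± 0.30 and Plvap, of endothelial diaphragms, up by 1.76 ± 0.28. The lower gene was Icam2 (-2.37 ± 0.34). Of 16 other fibroblast and mural genes 6 were higher and 1 lower, led by Pdpn, the surface marker of reticular fibroblasts (4.22 ± 0.51).

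Of 14 other follicular and reticular stroma genes 9 were higher and 1 lower. Serping1, the C1 inhibitor, rose by 5.33 ± 0.57, while Cr2, the complement receptor of both follicular dendritic cells and B cells, fell by 5.46 ± 0.51. In the Lig4/p53 tumours against the Bcl6 tumours 21 of the 38 matrix, 5 of the 16 fibroblast and mural, 11 of the 25 vessel and 9 of the 14 follicular genes were lower, and 1 fibroblast and mural and 1 vessel gene were higher. Against pro-B cells the counts of higher and lower genes were 4 and 2, 0 and 1, 2 and 3, and 0 and 7 for the same lists. Of all genes, 15.5% were called higher and 10.9% lower against Bcl6 tumours, and 13.2% and 7.91% against pro-B cells.

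Markers of other cells were counted too, beside 13% of all genes called higher and 13.9% lower in Bcl6 tumours than in GC cells. Of 13 macrophage and dendritic cell genes 5 were higher and 1 lower in Bcl6 tumours than in GC cells, with Csf1r up by 4.35 ± 0.57 and C1qb by 3.71 ± 0.61, and the mean of the list was 6.15 to 8.01 against 5.21 to 6.26. Of 3 adipocyte genes 2 were higher, Lpl and Fabp4. The liver list was called for 0 of 7 genes in Bcl6 tumours (0 at an unadjusted p under 0.05 in limma) and for 6 of 7 in the tumours labelled Myc/Bcl6. In the latter 27.2% of all genes were called higher than in GC cells and 20.9% lower. The megakaryocyte list had 1 of 7 genes higher in Bcl6 tumours. T-cell genes were lower for 1 of 9, erythroid genes for 1 of 6 and granulocyte genes for 5 of 9. The megakaryocyte, T-cell and erythroid counts were near the shares over all genes. What part these cells had in the members' values was not tested.

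The genes outside the list that ran closest to Clu over all 35 arrays were Iigp1 (r = 0.97), Cxcl9, Cfb, Serping1 and C1s1 (r = 0.93), where Cfb, Serping1 and C1s1 belong to the complement system and Iigp1 and Cxcl9 are induced by interferon. For Cxcl13 they were Cxcl9 (r = 0.96), Ltbp2, Htra1, Ubd and Cfb (r = 0.93), and for Col4a1 Fkbp9 (r = 0.92), Evc, Ikzf1, Iigp1 and Ms4a4d (r = 0.89). Over the 13 tumours alone the closest were Iigp1 for Clu (r = 0.97), Ltbp2 for Cxcl13 (r = 0.98) and Pawr for Col4a1 (r = 0.97). These values are descriptions: the arrays fall into separate clusters, and r reflects mostly the gap between the 7 high tumours and the rest. Within the 7 tumours Clu and Cxcl13 had r = 0.55, Dcn and Cxcl12 had 0.78, and Clu and Col4a1 had -0.63. Myc/Bcl6 replicate 1 had both the lowest Clu (6.99) and the highest Col4a1 (9.01) of the 7. The last value rests largely on that array and shows no general inverse relation. With group means removed over 35 arrays, the median r was 0.11 between pairs of matrix genes and 0.19 between pairs of follicular genes.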

How the data were processed

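Per the labels' protocols, total RNA was isolated, amplified with the NuGen Ovation V2 system, biotinylated and hybridised to Affymetrix 430A2 arrays. The deposited values are log2 intensities that the authors made with RMA, per the submitters' processing notes; the RMA version is not given in the sources used here. The table held 22690 probe sets; 64 controls, 691 naming several genes and 1555 naming none were left out, and each gene was read from its probe set of highest mean. No filter was set and no array was dropped.

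Tumour comparisons came from 1 limma 3.58.1 fit (R 4.3.3, lmFit and eBayes) over 35 arrays and comparisons of normal stages from a fit over the 22 normal arrays, with Benjamini-Hochberg adjustment. On simulated data for Bcl6 tumours versus GC cells, 12393 genes, the fit recovered 102 of 105 genes changed by 3 log2 units and 48 of 95 changed by 1.5, with 6 false calls. The simulation gave each gene a single spread for all groups and changed few genes, whereas 26.8% were called in the data. Its figures therefore do not give the error rates on these arrays. The members, lists and tests were chosen with earlier results of these data known. All members are accounted for; genes outside the list are named if among the 5 most correlated with Clu, Cxcl13 or Col4a1, or among the 3 of smallest p in a marker list. Same-numbered replicates did not deviate together in every pair of any comparison, so the numbers were not used as pairs. That check does not exclude pairing. Between GC and transitional cells the median r was 0.16 for same-numbered arrays and -0.08 for others, whereas between Bcl6 tumours and GC cells it was -0.10 and 0.02. Promoters are from RefSeq (GRCm38.p6). The number of arrays limits the precision.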

Additional observations from a re-analysis of the deposited data

Results flagged for a closer look

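Within groups of 4 to 6 arrays, 14 of 195 member and group sets (7.18%) had 1 array far from the others by Dixon's test; chance gives about 1 in 20.

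Most were in the Lig4/p53 tumours. Replicate 5 was the highest for Col1a1 (6.10, others 4.20 to 4.57), Col5a1 (5.42, others 3.10 to 3.76) and Igfbp7 (4.22) and the lowest for Timp3 (2.60). Replicate 6 was the highest for Col4a1 (4.74) and the lowest for Nid1 (4.37, others 6.81 to 7.97). Replicate 4 was the highest for Col6a1 (3.43) and replicate 2 for Cdh5 (3.87).

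Among plasmablasts, replicate 3 was the highest for Col6a2 (4.46) and the lowest for Nid1 (4.51), and replicate 4 the lowest for Eng (3.47). Fbln1 stood apart in transitional replicate 2 (4.55) and in Bcl6 tumour replicate 1 (3.62), and Cav1 in GC replicate 1 (3.81).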

How the results depend on the processing

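Counts of members called in the tumour comparisons were 27 (all tumours versus normal), 29 (Bcl6 versus GC), 29 (Myc/Bcl6 versus GC), 27 (Lig4/p53 versus Bcl6) and 6 (Lig4/p53 versus pro-B). Keeping only genes above the median gene left 9 members in the fit and 6, 5, 5, 5 and 2 called, since fewer members were tested. Igfbp7 and Cxcl13, on the probe sets used high in 7 tumours and low elsewhere, were among those left out. Leaving out 1 array gave 26 to 28, 25 to 29, 25 to 28, 25 to 28 and 3 to 6. Under the other settings run no count of these 5 moved by over 1.5 times. Adding the replicate block gave 26, 28, 29, 28 and 4.

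Normal-stage counts depended on the setting. For transitional versus pre-B cells 0 became 3 (mean of all probe sets), 1 (renewed quantile normalization), 2 (array weights), 1 (replicate block) and 7 (3 narrow arrays left out), and 0 to 4 with 1 array left out. For GC versus transitional cells 6 became 2 (genes above the median gene), 3 (quantile), 15 (weights), 14 (narrow arrays left out), 0 (strain) and 15 (these groups alone), and 4 to 6 with 1 array left out. For plasmablasts versus GC cells 0 became 11 (weights), 1 (narrow arrays left out) and 5 (these groups alone), and stayed at 0 with 1 array left out. For plasma cells versus plasmablasts 4 became 2 (above the median gene), 2 (quantile), 15 (weights) and 7 (narrow arrays left out), and 2 to 4 with 1 array left out. The cause was not tested. The block changed no other count by over 1.5 times.

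Counting differences called in either setting, signs turned in 2 results: Pecam1 in Myc/Bcl6 tumours versus GC cells was 0.22 with the 3′ to 5′ covariate (not called), and Lamb1 in Lig4/p53 versus Bcl6 tumours was -1.63 with the mean of all probe sets, where its main probe set gave 0.03. Uncalled differences changed sign in 262 other cases, such as Igfbp4 (-0.18), Fn1 (-0.68) and Vcam1 (-0.17) without Myc/Bcl6 replicate 2. Members near background, most vessel genes among them, have only weakly resolved differences.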
